A study of Homo sapiens with 6 samples.

Results

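The KANK genes (KANK1, KANK2, KANK3 and KANK4) are a family of 4 adhesion scaffold genes, and all 4 were among the 58735 genes of the deposited count table. The family was chosen from these data, because the counts of KANK4 were far higher in the AS1842856 libraries than in the DMSO libraries. The contrast of AS1842856 with DMSO is therefore given for the family as a description, with no test. RNA-Seq was performed on BT549 cells, an established basal-like breast cancer line, with 3 libraries from cells given DMSO and 3 from cells given AS1842856, a small molecule that binds FOXO1 and keeps it from binding DNA. Both groups were collected after 48 h, and the sample labels give the dose of AS1842856 as 200 nM. A different dose is named in the published text, and this was not resolved. The libraries are called A, B and C in each group.

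KANK proteins sit at the rim of focal adhesions, the sites where integrins and talin tie the actin cytoskeleton to the matrix. Near the N terminus a KN motif binds talin, a coiled coil binds liprin-beta1, and C-terminal ankyrin repeats bind the kinesin KIF21A. Through these contacts KANK proteins recruit a cortical platform (liprins, ELKS, LL5 proteins and CLASPs) that holds microtubule ends next to adhesions, and the microtubules in turn restrain RhoA and actomyosin pulling. KANK1 and KANK2 are known as the members of broad expression, whereas KANK3 and KANK4 are known mainly from endothelium, kidney and other restricted sites.

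The promoter windows of KANK4 and KANK2 are shown because these were the members with the largest differences between the groups, in opposite directions. They are from RefSeq (GRCh38.p14) and hold 250 bases before and 50 bases after a start site, 5′ to 3′ on the gene's strand. Windows were found for all 4 genes, 4 of them for KANK1 and 1 for each of the others. Capitals mark a match to a forkhead-type core (TGTTTAC or TGTTTAT, either strand).
KANK4, chr1:62319385-62319684, minus strand: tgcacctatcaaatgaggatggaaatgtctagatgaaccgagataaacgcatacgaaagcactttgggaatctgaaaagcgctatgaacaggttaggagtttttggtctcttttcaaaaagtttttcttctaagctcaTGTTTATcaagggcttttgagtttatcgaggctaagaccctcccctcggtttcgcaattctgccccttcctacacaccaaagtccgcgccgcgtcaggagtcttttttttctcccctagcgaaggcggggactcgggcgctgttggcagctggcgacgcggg
KANK2, chr19:11197496-11197795, minus strand: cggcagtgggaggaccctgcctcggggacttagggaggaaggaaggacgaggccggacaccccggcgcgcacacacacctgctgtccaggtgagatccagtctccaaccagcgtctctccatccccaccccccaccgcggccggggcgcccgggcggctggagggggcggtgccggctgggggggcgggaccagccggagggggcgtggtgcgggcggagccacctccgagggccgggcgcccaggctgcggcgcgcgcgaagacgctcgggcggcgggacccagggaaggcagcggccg
The KANK4 window held TGTTTAT on the gene's strand, with its first base 112 bases before the start site. That core was found on either strand in 4.24% of 35116 RefSeq windows of this length, and TGTTTAC in 3.42%. Each share is for a single core in a single window. Both forkhead cores were sought in every KANK window, so a match in any of them was more likely than either share. No KANK window held TGTTTAC. Of the TCF/LEF-type cores, CTTTGAA was in 4.43% of all windows and CTTTGAT in 2.62%, and neither was in a KANK window. The KANK2 window was 77.3% G and C, and that of KANK4 49.0%. A match or its absence describes only these letters, and binding was not measured.

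The libraries held between 15289500 and 22981832 counts, and edgeR's filter on low counts kept 14338 genes, with TMM scaling factors between 0.995 and 1.01. KANK1, KANK2 and KANK4, 3 of the 4 members, passed this filter and KANK3 did not. No replicate pair was alike within sampling noise (chi-square over its degrees of freedom, 2.37 to 3.29). The 8 mesenchymal and basal-like markers summed to 2956 to 3073 CPM (counts scaled to a common library size) in DMSO and 2921 to 2961 with AS1842856, but the basal keratins KRT5 and KRT14 stayed under 1 CPM in every library. The 9 luminal markers summed to 128 to 132 CPM in DMSO and 75.0 to 83.0 with AS1842856, and ESR1, PGR, EPCAM and CDH1 stayed under 1 CPM throughout. Of 8 endothelial markers, 7 (PECAM1, CDH5, VWF, TIE1, KDR, CLDN5 and EMCN) stayed under 1 CPM in every library, and the summed level of the 8 was 0.538 to 1.05 CPM in DMSO and 1.40 to 1.86 with AS1842856. The 5 immune markers summed to 0.861 to 1.69 CPM in DMSO and 2.76 to 3.59 with AS1842856, and all but PTPRC stayed under 1 CPM. The 5 podocyte markers summed to 67.7 to 69.0 CPM in DMSO and 76.5 to 82.2 with AS1842856. Mitochondrial genes held 2.83% to 3.02% of counts in DMSO and 2.65% to 2.74% with AS1842856. Whether these shifts have a part in the KANK values was not tested. In bulk RNA, fewer cells of a type and less RNA per cell cannot be told apart.

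KANK4 (ENSG00000132854, chromosome 1 from 62236979 to 62319414, minus strand, GRCh38) is the member reported to join talin with VEGFR2 signaling in endothelial cells. It had 84, 61 and 98 counts in DMSO libraries A, B and C, and 1926, 2445 and 1970 in the AS1842856 libraries. In TMM-normalized CPM its level was 3.83, 3.97 and 5.27 in DMSO and 115.6, 107 and 110.5 with AS1842856. The lowest treated library therefore lay far above the highest DMSO library. The mean was 4.36 ± 0.797 CPM in DMSO against 111 ± 4.27 CPM in treated cells (SD, n = 3). In edgeR's fit this was a log2 fold change of 4.67 with a standard error of 0.08, or 25.5-fold. This put KANK4 at rank 28 from the top among the 14338 log2 fold changes. The DMSO libraries varied more between replicates (18.3% of their mean) than the treated libraries (3.85%), and DMSO C was the highest of the 3. Counts were also far lower in DMSO, and the part of counting error in this spread was not tested. Leaving out single libraries gave log2 fold changes of 4.56 to 4.83. The gene body overlaps only a small nuclear RNA gene with no counts.

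**Figure D1:**
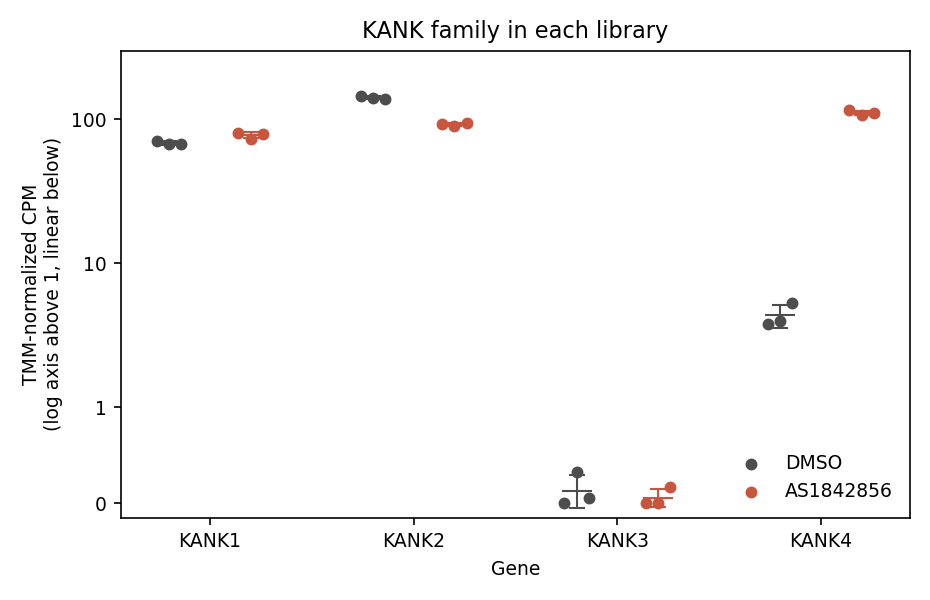
TMM-normalized CPM of the 4 KANK genes in each library (points; log axis above 1 and linear below), with the group mean and SD (horizontal mark and bars, n = 3 per group) for DMSO (grey) and AS1842856 (red). KANK4 moves from about 4 to about 111 CPM, KANK2 is lower and KANK1 slightly higher with AS1842856, and KANK3 is near 0 in both groups.

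KANK2 (ENSG00000197256, chromosome 19 from 11164267 to 11197791, minus strand) binds talin and also holds steroid receptor coactivators in the cytoplasm. Its level was 146, 142 and 139 CPM in DMSO libraries A, B and C, and 92.3, 90.5 and 95.2 CPM with AS1842856. All treated libraries were lower than all DMSO libraries, and replicates lay close together in both groups. The means were 142 ± 3.61 and 92.7 ± 2.34 CPM (SD, n = 3), and the log2 fold change was -0.62 with a standard error of 0.04, so that treated cells held 0.650 times the DMSO level.

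KANK1 (ENSG00000107104, chromosome 9 from 470291 to 746106, plus strand) is the founding member and recruits liprin-beta1 and KIF21A. It had 70.8, 67.3 and 67.8 CPM in DMSO and 80.6, 73.4 and 78.6 CPM with AS1842856. The groups did not overlap, but the gap between DMSO A and treated library B was of the size of the spread within groups. The means were 68.6 ± 1.88 and 77.6 ± 3.71 CPM (SD, n = 3), and the log2 fold change was 0.17 with a standard error of 0.05. Leaving out single libraries gave 0.14 to 0.21. KANK1 overlaps 7 annotated genes, and none of them had counts.

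KANK3 (ENSG00000186994, chromosome 19 from 8322584 to 8343262, minus strand) had 0, 5 and 1 counts in DMSO and 0, 0 and 3 with AS1842856. The groups overlapped and no fold is given. In the 3 libraries with no counts, the limit that a count of 0 allows (3 counts) was 0.137 CPM in DMSO A, 0.180 in treated library A and 0.131 in treated library B. This limit covers counting error only. The 3′ end of KANK3 overlaps RPS28 on the opposite strand, which was abundant (291 ± 16.3 CPM in DMSO, SD, n = 3). All 3 members that passed the filter had groups that did not overlap, where 59.9% of the genes tested did the same. As the family was chosen for one of them, nothing is read from that count.

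The members were compared with each other per length, in the deposited FPKM. In DMSO the order was KANK2, KANK1, KANK4 and KANK3, with 18.5 ± 0.481, 5.73 ± 0.164, 0.724 ± 0.133 and 0.0349 ± 0.0482 FPKM (SD, n = 3). No neighbours in this order overlapped between libraries. With AS1842856 the order was KANK4, KANK2, KANK1 and KANK3, with 18.5 ± 0.723, 12.1 ± 0.295, 6.47 ± 0.312 and 0.0155 ± 0.0268 FPKM, again without overlap between neighbours. In FPKM, KANK4 in treated cells was at 17.8 to 19.2 and KANK2 in DMSO at 18.1 to 19.0, but this too rested on the length used. Per kilobase of the transcript with the longest reading frame the same means were 23.8 and 46.7 CPM, and with the longest protein-coding transcript 23.8 and 27.6 CPM.

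Of the summed FPKM of the 4 genes, KANK4 made up 2.49%, 2.66% and 3.56% in the DMSO libraries and 50.6%, 49.8% and 49.2% in the treated libraries. The share of KANK2 was 73.4% to 74.4% in DMSO and 31.7% to 33.2% with AS1842856. KANK1 held 22.6% to 23.1% and 17.2% to 17.7%. The sum itself went from 25.0 ± 0.509 to 37.0 ± 1.17 FPKM, 1.48 times the DMSO value. With the longest reading frame the sum was 1.14 times the DMSO value, and with the longest protein-coding transcript 1.36 times. The mean share of KANK1 was 20.2% in DMSO and 20.1% with AS1842856 on the former scale, and 29.7% and 24.6% on the latter.

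The FPKM rank of KANK4 above KANK2 depends on the gene length used. The deposited FPKM implied lengths of 5978 to 6055 bases for KANK4, 7635 to 7734 for KANK2 and 11904 to 12057 for KANK1, close to the merged exons of GENCODE 29 (5980, 7638 and 11908 bases). Per kilobase of the transcript with the longest reading frame (4665 bases for KANK4, 3048 for KANK2 and 5688 for KANK1), treated cells held 23.8 ± 0.916 CPM per kilobase of KANK4 and 30.4 ± 0.767 of KANK2, so that KANK2 stayed above KANK4. With the longest protein-coding transcript, which is 5162 bases for KANK2, KANK4 was again above KANK2, by 0.41 on the log2 scale. Which transcripts were present was not measured in gene-level counts. In DMSO the order was the same under all 3 lengths.

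**Figure D2:**
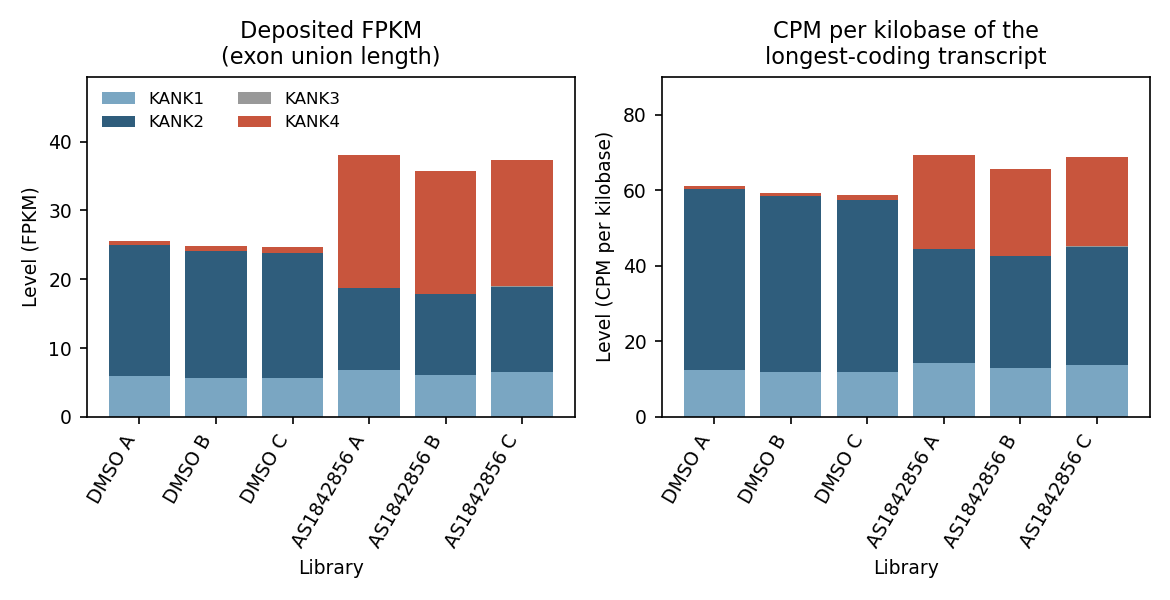
Stacked levels of the 4 KANK genes in each library, as deposited FPKM (left) and as CPM per kilobase of the transcript with the longest reading frame (right); both axes start at 0. KANK4 goes from 2.90% of the summed FPKM on average in DMSO to 49.9% with AS1842856, and to 35.1% on the right-hand scale, where KANK2 remains the larger share.

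By similarity of pattern over the 6 libraries, measured as the root mean square difference in log2 CPM after centering each gene on its DMSO mean, the genes most like KANK4 among 13023 were TCF7 (0.099), NPY2R (0.154), AXIN2 (0.165), CACNA1I (0.206) and AC007099.1 (0.216). TCF7, a TCF/LEF transcription factor, went from 20.2 to 540.4 CPM on average. AXIN2, a feedback inhibitor of the WNT pathway, went from 3.36 to 85.2 CPM. NPY2R, CACNA1I and AC007099.1 had mean levels of at most 0.0179 CPM in DMSO, so their place depends on the prior count of 2 that was added before the log. AC007099.1 is an antisense RNA, and its reads cannot be told apart from those of its partner gene if strand was not used. These likenesses come from the same contrast for which KANK4 was chosen and were not tested.

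The partners of KANK proteins were then examined with lists of known genes. A gene was called where edgeR's quasi-likelihood test gave an adjusted p under 0.05. By this rule 56.0% of the 14338 genes were called, 27.6% higher and 28.4% lower with AS1842856. Counts of list members are read against these shares. The median log2 fold change of all genes tested was 0.0030.

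Of the 12 genes of the cortical microtubule platform, 11 were tested, and 4 were called, 3 higher and 1 lower (36.4%, below the share of all genes). The median log2 fold change was 0.05. PPFIBP1, which encodes the liprin-beta1 that KANK1 binds, was at 139, 145 and 141 CPM in DMSO and 199, 208 and 203 with AS1842856. It rose, and the log2 fold change was 0.52 ± 0.04 (standard error; edgeR, adjusted p = 1.17e-29). CLASP2, which stabilizes microtubule plus ends, rose by 0.50, and MACF1, a linker of actin and microtubules, by 0.35. PHLDB2, the LL5-beta protein that anchors the platform at the membrane, was at 164, 175 and 162 CPM in DMSO and 113, 119 and 114 with AS1842856, and fell, its log2 fold change being -0.53 ± 0.04 (standard error; edgeR, adjusted p = 1.70e-28). The groups did not overlap in 5 of the 11 platform genes tested, these 4 among them. Of all genes tested, 59.9% did the same, and nothing is read from that count.

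The other platform genes were not called. KIF21A, the kinesin bound by the ankyrin repeats, averaged 9.57 ± 0.830 CPM in DMSO against 9.45 ± 0.763 CPM in treated cells (SD, n = 3), and the log2 fold change was -0.02 with a standard error of 0.12. ERC1 (ELKS), PHLDB1 (LL5-alpha) and CLASP1 had log2 fold changes of 0.04, 0.05 and 0.04, with standard errors of 0.05 to 0.07. PPFIBP2 did not pass the filter on low counts. On the FPKM scale, KIF21A was low (0.940 in DMSO) beside PPFIBP1 (12.1) and PHLDB2 (13.5).

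Of 30 talin and focal adhesion genes, 29 were tested and 23 were called (79.3%), 4 higher and 19 lower. The median log2 fold change was -0.28, and TNS1 had no counts. TLN1, the talin that the KN motif binds, had 865, 845 and 821 CPM in DMSO and 753, 764 and 773 with AS1842856, so that it fell slightly, at a log2 fold change of -0.14 ± 0.03 (standard error; edgeR, adjusted p = 5.43e-05). CREB3, on the other strand, overlaps TLN1 and had 11.1% of its counts. TLN2 was not called, with 66.3 ± 4.50 and 71.7 ± 2.48 CPM (log2 fold change 0.11, adjusted p = 0.0563, edgeR). It was called without DMSO replicate A (adjusted p = 0.00907) or without AS1842856 replicate A (adjusted p = 0.0373, edgeR).

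The largest decreases of the adhesion list were those of LIMS2 (a PINCH adaptor of integrin-linked kinase), ITGB3 (integrin beta3), TNS3 (a tensin), PXN (paxillin) and PARVA (alpha-parvin). TNS3 was at 216, 209 and 209 CPM in DMSO and 66.5, 66.2 and 64.0 with AS1842856, a log2 fold change of -1.69. PXN went from 226 ± 5.51 to 129 ± 6.09 CPM and PARVA from 47.5 ± 1.23 to 27.6 ± 0.287 CPM (SD, n = 3). LIMS2 and ITGB3 were low, at 5.11 ± 0.252 and 3.64 ± 0.164 CPM in DMSO and 0.497 ± 0.112 and 0.693 ± 0.0455 with AS1842856. GPR17, on the other strand, overlaps LIMS2 and had 8.57% of its counts.

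The 4 adhesion genes that rose were BCAR1 (p130Cas), LIMS1, LPP and ENAH, with log2 fold changes of 0.37, 0.28, 0.27 and 0.19. BCAR1, an adaptor downstream of FAK and SRC, went from 187.7 ± 5.75 to 243.5 ± 2.98 CPM (SD, n = 3), and its groups did not overlap.

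Of 23 RhoA and actomyosin genes, all were tested and 15 were called (65.2%), 4 higher and 11 lower, and the median log2 fold change of the 23 was -0.09. ARHGEF2 (GEF-H1, the RhoA activator that microtubules hold inactive) was at 154, 159 and 162 CPM in DMSO and 181, 190 and 183 with AS1842856. It rose, at a log2 fold change of 0.22 ± 0.04 (standard error; edgeR, adjusted p = 1.27e-07). LIMK2, a kinase of cofilin, went from 17.4 ± 0.359 to 51.2 ± 2.07 CPM (SD, n = 3), and its log2 fold change was 1.56. The related LIMK1 was not called, with 66.8 ± 2.81 CPM in DMSO and 70.6 ± 3.12 CPM with AS1842856 (SD, n = 3). ARHGDIA, an inhibitor of RhoA that KANK2 binds in podocytes, rose by 0.15 and the myosin heavy chain MYH9 by 0.17.

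The largest decreases were in genes of myosin light chains and their kinase, and in the formins DAAM1 and DIAPH3. MYLK (myosin light chain kinase) was at 33.6, 33.3 and 29.5 CPM in DMSO and 10.3, 12.6 and 11.8 with AS1842856, a log2 fold change of -1.46. MYL9 went from 201 ± 5.49 to 103 ± 1.45 CPM (SD, n = 3). The log2 fold change was -0.96 for MYL9, -0.72 for the formin DAAM1, -0.53 for MYL12B and -0.44 for the formin DIAPH3. The formin DIAPH1 was not called, with 260 ± 1.72 CPM in DMSO and 270 ± 4.19 CPM with AS1842856 (SD, n = 3). MYL12B and MYL12A are near-identical copies, so their counts are uncertain.

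**Figure D3:**
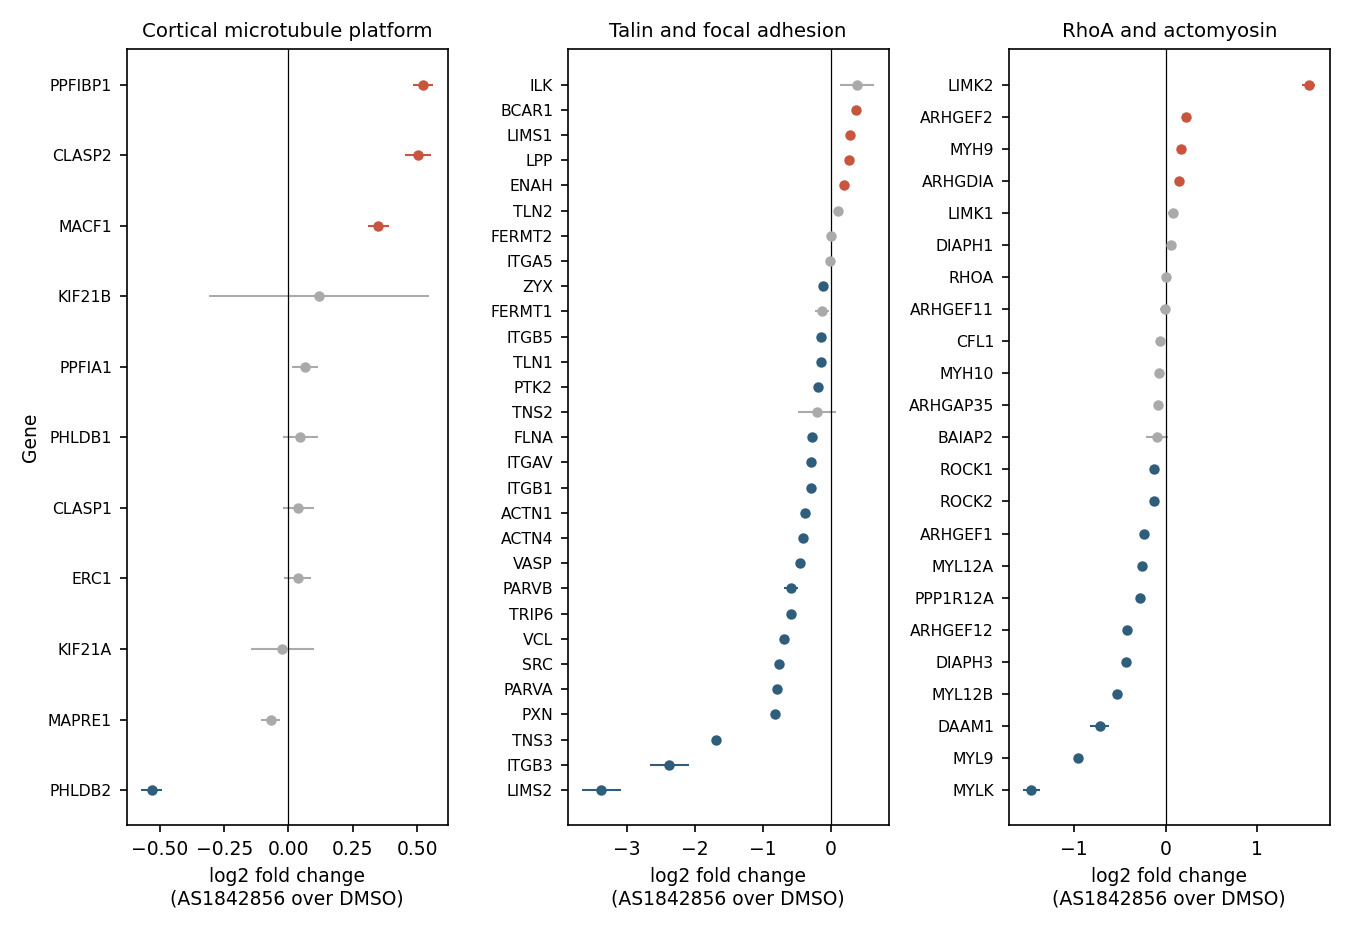
Log2 fold changes (AS1842856 over DMSO) with standard errors for the tested genes of the 3 partner lists; red is higher and blue lower where edgeR's adjusted p is under 0.05, and grey is not called. Each panel has its own axis range. Of 29 adhesion genes tested, 19 are called lower and 4 higher. The same counts are 11 and 4 of 23 actomyosin genes, and 1 and 3 of 11 platform genes. Of all 14338 genes tested, 28.4% are called lower and 27.6% higher.

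KANK2 is also known to bind the steroid receptor coactivators NCOA1, NCOA2 and NCOA3. NCOA1 was at 18.4, 17.1 and 16.9 CPM in DMSO and 16.1, 11.2 and 12.8 with AS1842856, and its log2 fold change was -0.40 ± 0.10 (standard error; edgeR, adjusted p = 0.000249). With limma, NCOA1 lost its call on log2(FPKM + 0.1) (adjusted p = 0.0502) and on log2(FPKM + 1) with no filter (adjusted p = 0.10). NCOA3 was at 67.0, 67.1 and 64.3 CPM in DMSO and 74.5, 70.6 and 71.7 with AS1842856, and its log2 fold change was 0.13 (edgeR, adjusted p = 0.0261). NCOA3 lost its call without DMSO replicate C (adjusted p = 0.128) or without AS1842856 replicate A (adjusted p = 0.116, edgeR). NCOA2 was not called, with a log2 fold change of -0.08 and a standard error of 0.06.

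The KANK genes lie near genes of the DOCK and ANGPTL families. DOCK8 is next to KANK1, and DOCK6 is next to KANK2. ANGPTL8 lies within the span of DOCK6, 39658 bases from KANK2, and ANGPTL4 lies 20026 bases from KANK3. DOCK genes encode activators of Rac and Cdc42, and ANGPTL genes encode secreted regulators of lipoprotein lipase. Of the 10 genes tested around the family, 8 were called, 3 higher and 5 lower, beside 56.0% of all genes.

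Near KANK4, the nearest tested genes on both sides differed far less than KANK4 itself. PATJ, 58303 bases away, averaged 4.49 ± 0.339 CPM in DMSO against 3.37 ± 0.631 CPM in treated cells (SD, n = 3), and the log2 fold change was -0.44 (edgeR, adjusted p = 0.0389). PATJ lost its call without DMSO replicate A, DMSO replicate C or AS1842856 replicate B, with an adjusted p of up to 0.276. USP1, 116882 bases away, rose by 0.42 from 254 ± 11.1 to 339 ± 13.5 CPM.

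Near KANK2, DOCK6 lies 1503 bases away and was at 13.7, 15.04 and 13.1 CPM in DMSO and 6.72, 6.92 and 6.56 with AS1842856. It fell, at a log2 fold change of -1.04 ± 0.12 (standard error; edgeR, adjusted p = 6.01e-15), so that KANK2 and DOCK6 were both lower in treated cells. ANGPTL8 did not pass the filter on low counts.

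Near KANK1, DOCK8 had no counts in any library, and its end lies 5031 bases from the start of KANK1. SMARCA2 fell (log2 fold change -0.32), and CBWD1, which has near-identical copies elsewhere in the genome, was called higher by a small margin, at a log2 fold change of 0.18 (edgeR, adjusted p = 0.0476). CBWD1 lost its call without DMSO replicate A, DMSO replicate B, AS1842856 replicate B or AS1842856 replicate C, with an adjusted p of up to 0.443. Near KANK3, ANGPTL4 fell from 26.7 ± 1.79 to 20.9 ± 0.275 CPM, and RPS28 rose, with a log2 fold change of 0.37. NDUFA7 was not called (0.703 ± 0.257 and 0.612 ± 0.310 CPM), and it overlaps the far more abundant RPS28 on the opposite strand.

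**Figure D4:**
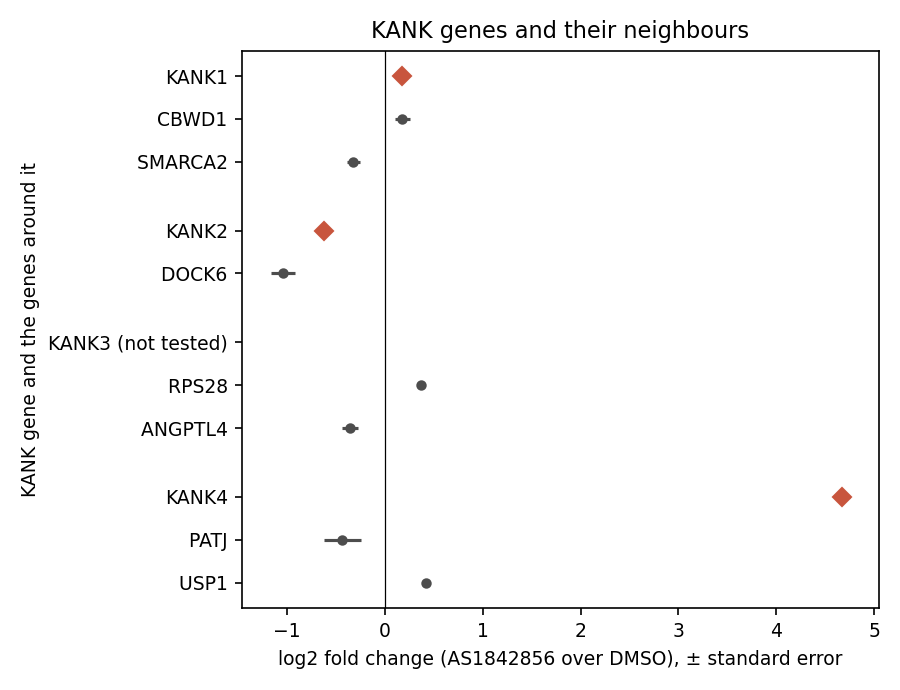
Log2 fold changes (AS1842856 over DMSO) with standard errors for the KANK genes (red diamonds) and for the nearest tested genes around each (grey circles), leaving out those overlapped by a gene with more counts. KANK4 stands at 4.67 with its neighbours between -0.44 and 0.42, whereas KANK2 (-0.62) and its neighbour DOCK6 (-1.04) are both lower.

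The proteins of the family were compared in sequence, which the choice of the family did not use. The longest reading frames of their GENCODE 29 transcripts encode 1352 residues for KANK1, 859 for KANK2, 840 for KANK3 and 995 for KANK4. Aligned pairs were identical at 33.3% (KANK2 and KANK4) to 42.1% (KANK1 and KANK2) of shared positions. KANK4 was identical to KANK1 at 35.4%, to KANK2 at 33.3% and to KANK3 at 34.4%.

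Identity among all 4 proteins had its highest peaks near the N terminus and toward the C terminus. In the last 300 columns of the alignment, 28.0% were the same in all 4, against 5.19% of the 1137 columns before them. A column with a gap in any protein counted as not the same. These shares therefore mix differences in length with differences in residues. The most conserved stretch of 30 columns on the N-terminal side had 17 identical in all 4 and spanned residues 26 to 55 of KANK1, 27 to 56 of KANK2, 29 to 58 of KANK3 and 20 to 49 of KANK4, near the N terminus where the KN motif lies. The most conserved stretch on the C-terminal side had 20 of 30 and spanned residues 894 to 923 of KANK4. On both sides overlapping stretches tied for the most identical columns, and the first of them is given.

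**Figure D5:**
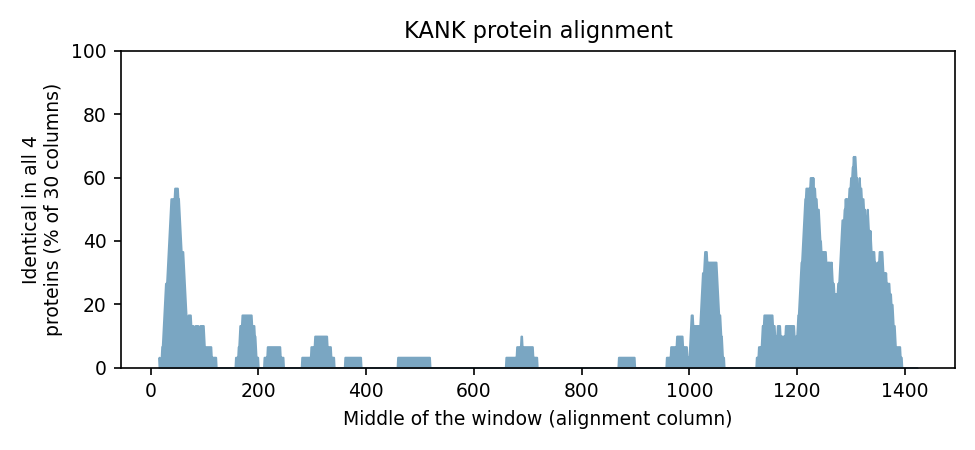
Percent of 30 alignment columns in which all 4 KANK proteins carry the same residue, along the alignment of the longest reading frames. Identity peaks near the N terminus (17 of 30) and toward the C terminus (20 of 30), and a smaller peak of 11 of 30 lies before the last 300 columns.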

How the data were processed

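RNA-Seq of BT549 cells was analysed in 6 libraries, grouped by the treatment labels. The authors deposited unnormalized gene counts and FPKM values (scaled for gene length and depth), made by a sequencing company. The published methods name STAR for mapping, whereas the submitters' processing notes name Bowtie 0.12.2, CASAVA and GRCh38, and which aligner made these counts was not resolved. The annotation, counting tool and use of strand are not given in the sources used here. All 58735 gene IDs were found in GENCODE 29.

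Counts were filtered with filterByExpr (minimum count 10, minimum total count 15), scaled by TMM and tested with glmQLFit (robust) and glmQLFTest in edgeR 4.0.16 (R 4.3.3), with Benjamini-Hochberg adjustment over all 14338 genes. The standard error was the log2 fold change divided by the square root of F. The biological coefficient of variation, common to all genes, was 0.0374 at this depth. At 3 libraries a group, the smallest two-sided p of an exact permutation test is 0.10. The published methods call the replicates biological, but neither they nor the labels say whether these were separate cultures, so p-values measure the spread between these libraries.

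The members and lists were chosen with earlier results of these data known, and the lists were written from general knowledge. Named list genes were the up to 5 largest increases and decreases called with a mean of at least 1 CPM, and fixed KANK partners. LIMK1 and DIAPH1 are given besides, as relatives of genes so named. Alternatives were DESeq2 1.42.0, other scalings and filters, limma 3.58.1 on log2(FPKM + 1) and log2(FPKM + 0.1), the replicate letter as a block, and each library left out. Other gene lengths and the promoter letters were chosen after the data were seen. Reading frames were translated from GENCODE transcripts and aligned with mafft 7.526. The tests were first tested on simulated data. Some genes around the family and some marker genes are counted in the totals but not reported here.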

Additional observations from a re-analysis of the deposited data

How the results depend on the processing

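The directions for KANK1, KANK2 and KANK4 were the same under every alternative run. With limma on log2(FPKM + 1), filtered or not, the log2 fold change of KANK4 was 3.50 and that of KANK2 -0.58. This scale shrinks changes of low genes, so that MYLK reached only -0.68. LIMS2 and ITGB3 did not pass the FPKM filter, and without it they reached only -0.59 and -0.66. With the longest-reading-frame length, the log2 ratio of KANK4 over KANK2 in treated cells turned from 0.61 to -0.35, and with the longest protein-coding transcript it was 0.41. The same 2 lengths gave KANK4 35.1% and 43.0% of the family level with AS1842856, and 1.57% and 2.30% in DMSO. The log2 ratio of KANK2 over KANK1 was 1.95 and 1.19 in DMSO and 1.16 and 0.40 with AS1842856, and that of KANK1 over KANK4 in DMSO was 3.71 under both. Of the 3 coactivator genes, 1 was called by DESeq2 and with no filter (NCOA1), 1 on log2(FPKM + 0.1) (NCOA3) and 0 on log2(FPKM + 1) with no filter. The number called was 1 to 2 with each library left out, and 1 without DMSO replicate C or AS1842856 replicate A. The list counts stayed within 1.5 times, with 20 to 24 adhesion genes, 13 to 17 actomyosin genes, 4 to 5 platform genes and 6 to 8 neighbours called. CBWD1 and PATJ also lost their calls with DESeq2 (adjusted p = 0.20 and 0.183) and with no filter (adjusted p = 0.118 and 0.0573). With library totals alone, a mean of at least 50 counts or any limma run, 2 neighbours were called higher rather than 3. With limma and no filter, 4 were called lower rather than 5. All genes called numbered 6453 to 8029.

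The replicate letters did not pair the libraries (correlations of same-letter deviations from -0.01 to 0.04). With the replicate block 7862 genes were called, the log2 fold change of KANK4 was 4.68, no other count of calls changed by over 1.5 times, and CBWD1 and PATJ lost their calls (adjusted p = 0.0619 and 0.0515, edgeR). Depth limits KANK3, whose counts of 0 to 5 cannot show a difference.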
